A study of Homo sapiens with 8 samples.

Results

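The collagen genes are the genes whose symbols have the form COL, number, A, number, and 43 of them were measured among 18417 genes. They were taken from the symbols of the array annotation, with 1 transcript cluster (the set of probes read as 1 transcript) for each gene. They encode chains of 27 collagen types. The 8 arrays held RNA of ZR-75-1, an established line of estrogen receptor positive human breast cancer cells, with 2 arrays for each of 4 lines. These were parental cells, cells with a control short hairpin RNA against GFP (shGFP), and shEI24 clone 1 and clone 2, in which a hairpin RNA lowers EI24, a gene for a membrane protein of the endoplasmic reticulum. The sample titles name no chemical treatment for any line. The submitters describe the clones as independent, so each shEI24 line is 1 clone, and whether the arrays of a line stand for separate cultures is not stated in the sources used here. The p-values therefore cover the spread from array to array alone, which may be technical.

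Collagens are extracellular proteins built from chains that wind into a triple helix. Fibrillar collagens form the banded fibers of connective tissue, type IV forms the sheet of basement membranes on which epithelial cells rest, and FACIT collagens (fibril-associated collagens with interrupted triple helices) sit on the surface of fibrils. Others span the cell membrane, anchor basement membranes to the tissue beneath, or form beaded filaments and hexagonal lattices. Luminal breast cancer cells are epithelial, and fibroblasts supply most of the fibrillar collagen around them.

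The values are log2 intensities, in which a difference of 1 is a 2-fold difference in signal. Differences between lines come from limma, with p-values adjusted over all 18417 genes, and a gene is said to have risen, to have fallen or to have been called where the adjusted p was under 0.05. Probes of different genes bind with different strength, so levels are compared between lines and not between genes. EI24 itself averaged 12.09 in parental cells, 11.94 in shGFP cells, 8.54 in clone 1 and 9.22 in clone 2. All 8 luminal epithelial markers (ESR1, GATA3, FOXA1, EPCAM, CDH1, KRT8, KRT18 and KRT19) fell in the clones against shGFP, and their mean level ran from 8.73 to 9.14 on the shEI24 arrays and from 12.27 to 12.39 on the control arrays. All 4 mesenchymal markers (VIM, CDH2, ZEB1 and SNAI2) rose, by 0.33 to 6.2, and 3 of them rose at least 2-fold. Their mean level was 10.20 to 10.48 on the shEI24 arrays and 6.20 to 6.42 on the control arrays. CDH1, the adhesion protein of epithelial cells, fell most among the luminal markers, by 6.11, and KRT18, a keratin of luminal cells, least, by 1.38. Of all genes tested, 26.8% rose and 29.0% fell in the clones against shGFP. The part of the marker shifts in the collagen values was not tested.

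Promoter sequence from RefSeq (GRCh38.p14) is shown, in lower case, 5′ to 3′, for COL4A1, COL4A2, COL12A1 and COL13A1, which rose at least 2-fold in the shEI24 clones. COL8A1 also rose at least 2-fold, but no promoter window was available for it. COL4A3 and COL4A4 are shown as a second pair of neighboring type IV genes. COL4A1 with COL4A2, and COL4A3 with COL4A4, are transcribed away from each other, so the whole stretch between the starts of the RefSeq gene records of each pair is shown, and for COL12A1 and COL13A1 the 250 bases before the start. Capitals mark matches, on either strand, to the GC box, the CCAAT box or the TATA box. The letters searched were GGGCGG for the first, those of its name for the second and TATAAA for the third. The stretch between COL4A1 and COL4A2 is chr13:110307158-110307283, plus strand, that between COL4A4 and COL4A3 is chr2:227164489-227164623, plus strand, the COL12A1 window is chr6:75206054-75206303, minus strand, and the COL13A1 window is chr10:69801656-69801905, plus strand.
COL4A1 and COL4A2: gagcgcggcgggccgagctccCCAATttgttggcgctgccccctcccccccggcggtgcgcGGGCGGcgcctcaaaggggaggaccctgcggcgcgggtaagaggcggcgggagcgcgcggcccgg
COL4A4 and COL4A3: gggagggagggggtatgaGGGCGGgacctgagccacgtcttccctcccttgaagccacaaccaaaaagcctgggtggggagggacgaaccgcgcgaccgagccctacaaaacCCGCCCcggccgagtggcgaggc
COL12A1: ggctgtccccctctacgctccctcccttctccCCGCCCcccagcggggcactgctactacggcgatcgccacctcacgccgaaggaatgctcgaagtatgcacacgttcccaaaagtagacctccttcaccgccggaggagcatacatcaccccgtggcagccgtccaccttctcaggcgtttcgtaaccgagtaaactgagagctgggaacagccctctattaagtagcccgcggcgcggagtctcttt
COL13A1: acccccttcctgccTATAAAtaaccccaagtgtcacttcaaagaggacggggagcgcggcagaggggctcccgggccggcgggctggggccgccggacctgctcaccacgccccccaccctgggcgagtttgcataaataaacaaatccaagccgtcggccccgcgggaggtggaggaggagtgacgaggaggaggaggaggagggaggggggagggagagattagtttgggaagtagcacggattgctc

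Some genes have several starts and so several windows, and a gene was counted where any of its windows held the motif. A GC box stood before 21 of the 31 collagen genes with a promoter window (67.7%), against 46.2% of all 27305 genes with windows of this length. The CCAAT box stood before 10 of the 31 (37.0% of all genes) and the TATA box before 6 (13.0%). The AP-1 site (TGANTCA) was found before 1 (8.06%), the E-box CAGGTG, which SNAI and ZEB factors bind, before 5 (20.6%), and the κB site before 4 (6.28%). None of the last 3 motifs matched in any of the stretches shown. COL4A3 and COL4A4 each held the E-box in a 250-base window, outside the stretch shown, and COL6A2 and COL7A1 held the κB site. No COL4A4 window held a GC box, while the stretch shown between COL4A4 and COL4A3 held 2. The COL4A4 windows therefore begin at another start than that of the gene record. These are matches of letters and not sites of binding.

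The first comparison asked which collagen genes differed between the shEI24 clones and the shGFP control. COL12A1, a FACIT chain that coats type I fibrils, rose most, by a log2 difference of 3.62, and COL8A1, a network-forming chain of vessel walls and the cornea, rose by 2.35. The main basement membrane chains COL4A1 and COL4A2 and the transmembrane chain COL13A1 rose by 1.13 to 1.38. In all, 14 of the 43 collagen genes (32.6%) were higher, beside 26.8% of all genes tested, and 5 (11.6%) were higher by at least 2-fold, beside 8.69% of all genes. None was called lower, where 29.0% of all genes were. The difference was positive for 41 of the 43 collagen genes, beside 10605 of all 18417 genes. The collagen differences had a median of 0.28 and a range of -0.17 to 3.62, while the median of all genes was 0.07. The count of lower genes by limma was also 0 with unadjusted p-values under 0.05. The unpaired t-test named in the study's methods gave 7 higher (17.4% of all genes) and 0 lower at an adjusted p. By that test 3727 of all 18417 genes were lower. At an unadjusted p it gave 9 higher and 0 lower. The share of all genes at an unadjusted p was not counted for either test. The count of higher collagen genes by limma was 9 without shGFP replicate 1 (19.7% of all genes were then higher), 23 without clone 1 replicate 1 (30.3%) and 24 without clone 2 replicate 1 (28.6%).

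**Figure D1:**
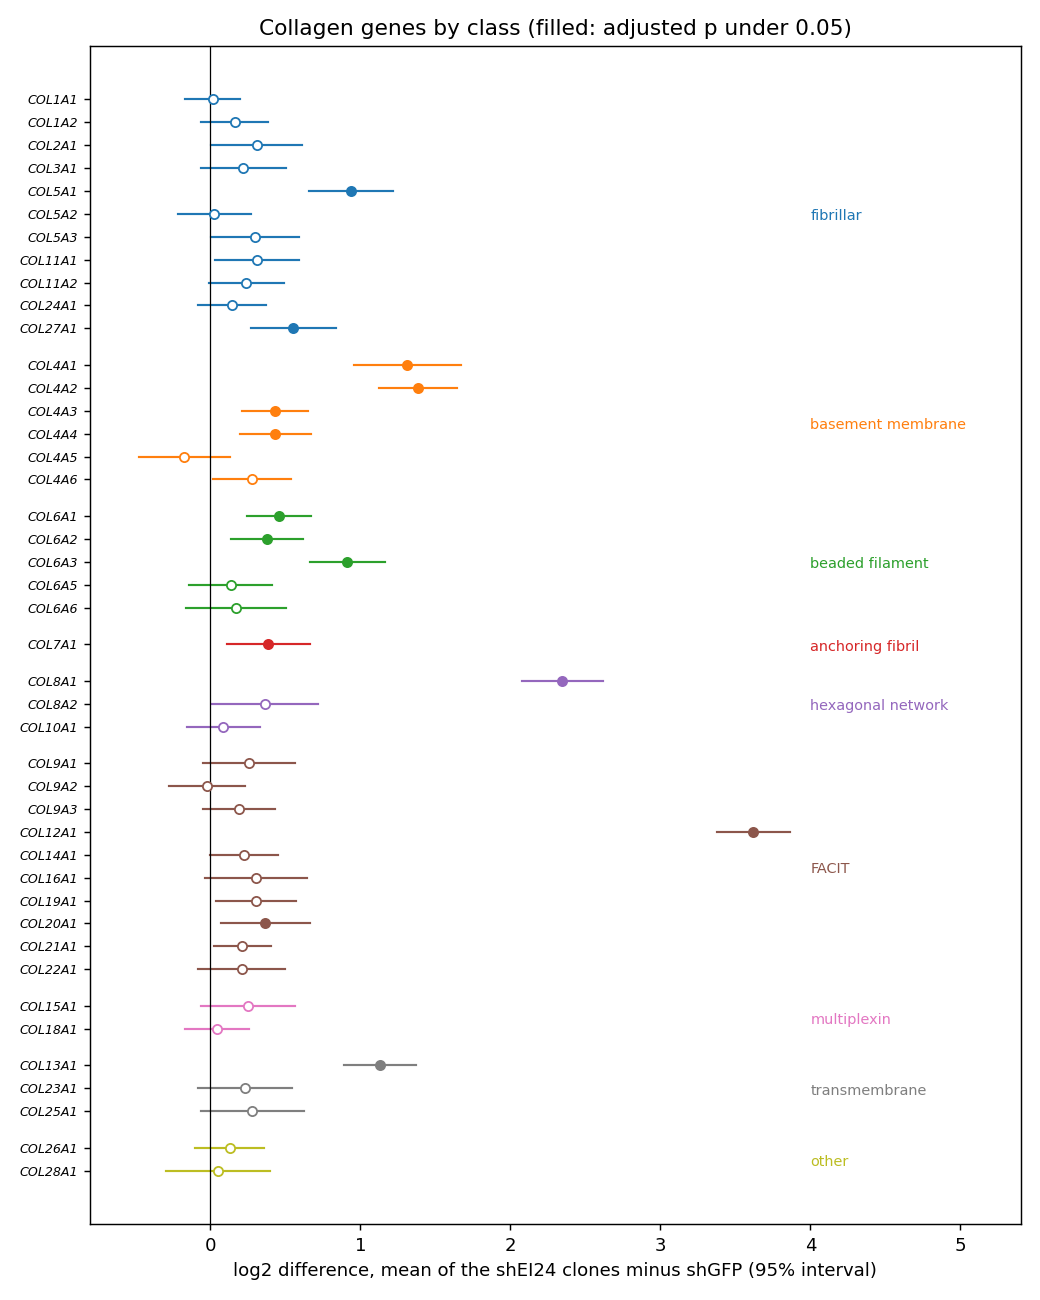
Log2 difference of the mean of the shEI24 clones from shGFP for each of the 43 collagen genes, grouped by class, with its 95% interval. Filled points passed an adjusted p under 0.05. COL12A1 at 3.62 and COL8A1 at 2.35 stand to the right of all others, and no filled point lies below 0.

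The share of genes called differed with the level of the genes. No collagen gene was in the brightest of 3 equal groups of genes by mean level, where 46.3% of genes fell. In the dimmest group 4 of 19 collagen genes rose, beside 21.3% of its genes, and 9.02% of its genes fell. In the middle group 10 of 24 collagen genes rose, beside 29.7%, and 31.8% of its genes fell. The second array of a line also read higher than the first for most collagen genes, namely 40 of 43 in parental cells, 36 in shGFP cells and 40 in each clone. The median of that gap was 0.23 in parental cells, 0.07 in shGFP cells, 0.23 in clone 1 and 0.22 in clone 2. Over all genes and lines together, the median gap was 0.09 in the dimmest group and 0.004 in the middle group. Many of the smaller collagen differences between clones and shGFP are of the size of the collagen gaps. Each line has a first and a second array, so a gap shared by all lines drops out of differences between line means.

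**Figure D2:**
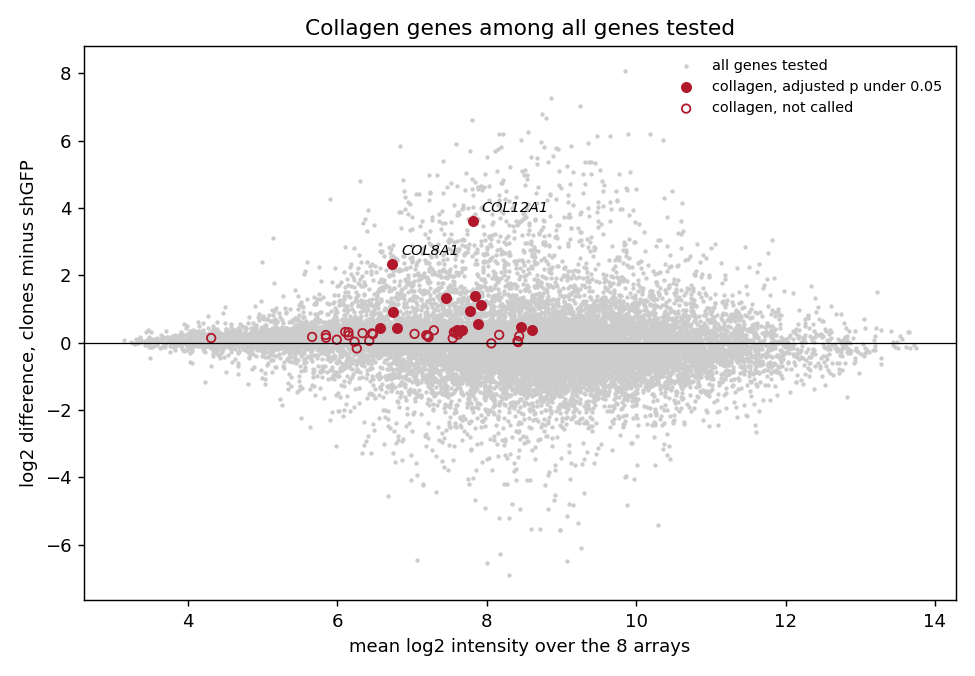
Each gene's mean log2 intensity over the 8 arrays (horizontal) against its log2 difference of the clones from shGFP (vertical), with all 18417 genes in grey and the collagen genes in red. The collagen genes lie in the dim and middle range, mostly just above 0, with COL12A1 and COL8A1 far above the rest.

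Among the fibril-associated chains, COL12A1 had a log2 intensity of 6.08 and 6.15 on the parental arrays and 5.92 and 6.01 on the shGFP arrays. It stood at 9.86 and 9.53 in clone 1 and at 9.55 and 9.38 in clone 2. Every shEI24 array lay over 3 log2 units above every control array. The difference of the clones from shGFP was 3.62 (standard error 0.11, limma adjusted p = 1.3e-08), a 12.3-fold difference. Its shGFP level was at percentile 18.1 of all genes, where background compresses differences, so this fold may understate the change. COL20A1, another FACIT chain, rose by 0.37 (limma adjusted p = 0.040). The other 8 FACIT genes (COL9A1, COL9A2, COL9A3, COL14A1, COL16A1, COL19A1, COL21A1 and COL22A1) were not called, with differences of -0.02 to 0.31. The call for COL20A1 was lost under 9 of 20 alternatives, also against parental cells, where its difference was 0.29 (limma adjusted p = 0.086), and without clone 1 replicate 2 (0.27), clone 2 replicate 2 (0.31), shGFP replicate 1 (0.28) or shGFP replicate 2 (0.45).

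Among the network-forming chains, COL8A1 read 5.36 and 5.51 in parental cells and 5.59 and 5.62 in shGFP cells. It read 9.10 and 8.80 in clone 1 but only 7.11 and 6.79 in clone 2. Both clones lay above all control arrays, and clone 1 lay well above clone 2. The mean difference from shGFP was 2.35 (standard error 0.12, limma adjusted p = 3.6e-07), a 5.09-fold difference, from a shGFP level at percentile 13.2 of all genes. Its partner in type VIII networks, COL8A2, read 6.93 and 7.34 in parental cells, 7.04 and 7.15 in shGFP cells, 7.16 and 7.61 in clone 1, and 7.43 and 7.66 in clone 2. These arrays overlap, and the difference of 0.36 (95% interval 0.01 to 0.72) was not called (limma adjusted p = 0.074), though without clone 1 replicate 1 it was 0.48 and called (limma adjusted p = 0.018). COL10A1, the chain of growth plate cartilage, was not called at 0.09. With each line taken as 1 replicate and the clones set against shGFP and parental cells together, COL8A1 differed by 2.43 but missed the threshold (limma adjusted p = 0.051).

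**Figure D3:**
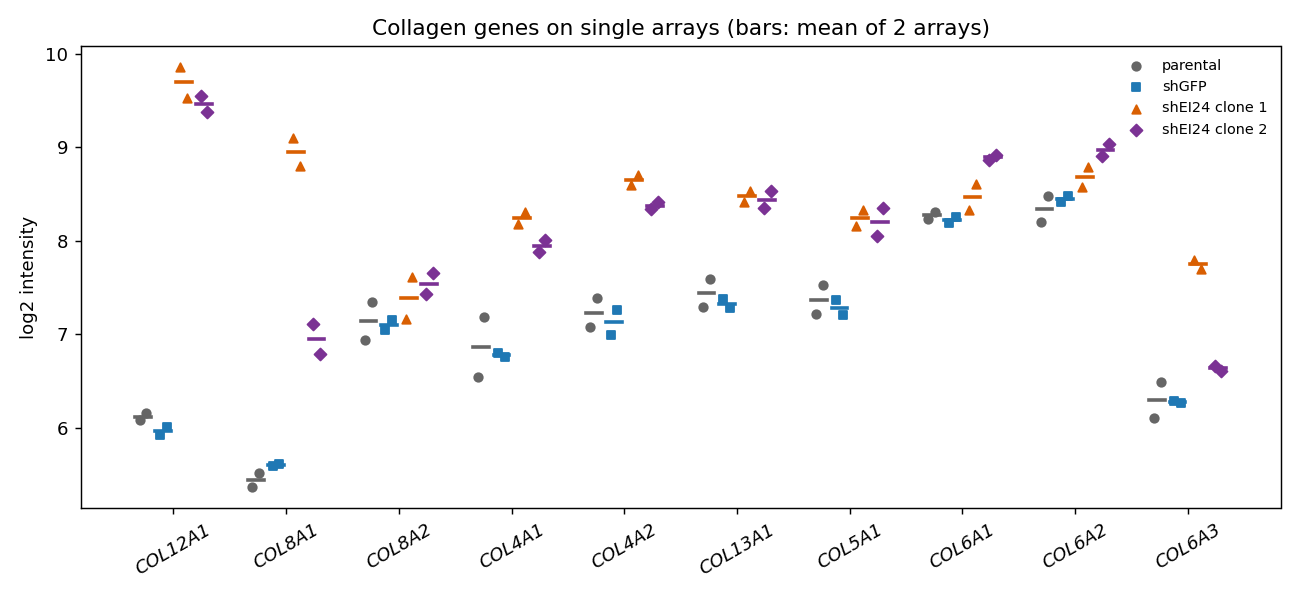
Log2 intensity of 10 collagen genes on each of the 8 arrays, coloured by line, with a bar at the mean of each line's 2 arrays. COL12A1, COL4A1, COL4A2, COL13A1 and COL5A1 were high in both clones, while COL8A1 and COL6A3 were highest in clone 1 and COL6A1 in clone 2.

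The 6 chains of type IV, the scaffold of basement membranes, differed among themselves. COL4A1, the more widely made chain together with COL4A2, read 6.54 and 7.19 in parental cells, 6.80 and 6.76 in shGFP cells, 8.18 and 8.31 in clone 1, and 7.88 and 8.01 in clone 2. COL4A2 read 7.07 and 7.39, 6.99 and 7.26, 8.60 and 8.70, and 8.34 and 8.41 on the same arrays. Both genes were higher on all 4 shEI24 arrays than on all 4 control arrays. The differences from shGFP were 1.31 for COL4A1 (standard error 0.16, limma adjusted p = 8.6e-05) and 1.38 for COL4A2 (standard error 0.11, limma adjusted p = 7.8e-06), or 2.48-fold and 2.61-fold. These neighbors, whose starts lie 126 bases apart in the sequence shown above, make the chains of 1 molecule.

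COL4A3 and COL4A4, chains of the kidney's filtration membrane whose gene records start 135 bases apart, each rose by 0.43 (limma adjusted p = 0.0041 and 0.0063). COL4A3 had line means of 6.73 in parental cells, 6.53 in shGFP cells, 6.93 in clone 1 and 7.01 in clone 2. The COL4A4 means were 6.47, 6.32, 6.62 and 6.87 in the same order, and its clone 1 arrays overlapped the parental ones. Against parental cells COL4A3 differed by 0.23 and was not called (limma adjusted p = 0.068), while COL4A4 differed by 0.28 (limma adjusted p = 0.049). Without shGFP replicate 1 the differences from shGFP were 0.38 and 0.41 and neither was called (limma adjusted p = 0.055 and 0.057). The pair on the X chromosome, COL4A5 and COL4A6, was not called. COL4A6 differed from shGFP by 0.28 (95% interval 0.01 to 0.54, limma adjusted p = 0.069) and COL4A5 by -0.17 (95% interval -0.47 to 0.13, limma adjusted p = 0.29). COL4A5, the third chain of the molecule that COL4A3 and COL4A4 form, read 6.38 and 6.36 in parental cells, 6.30 and 6.38 in shGFP cells, 5.92 and 6.31 in clone 1, and 6.04 and 6.40 in clone 2, and it was the collagen gene with the lowest difference. COL4A5 was called lower after cyclic loess normalization (-0.32, limma adjusted p = 0.021) and after a second quantile normalization (-0.37, limma adjusted p = 0.015).

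Of the transmembrane chains 3 were measured, and COL17A1, also of this class, was not among them. COL13A1, a collagen of cell contacts with the matrix, read 7.29 and 7.59 in parental cells and 7.37 and 7.28 in shGFP cells. It read 8.42 and 8.53 in clone 1, and 8.35 and 8.54 in clone 2. The shEI24 arrays did not overlap the control arrays, and the clones lay close together. Its difference from shGFP was 1.13 (standard error 0.11, limma adjusted p = 1.7e-05), or 2.19-fold. COL23A1 and COL25A1 were not called, at 0.23 and 0.28.

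Among the 11 fibrillar genes only COL5A1 and COL27A1 were called, both higher, beside 26.8% of all genes higher and 29.0% lower. The class median was 0.24. COL5A1, a chain of type V collagen that helps to start fibrils, read 7.22 and 7.52 in parental cells, 7.37 and 7.20 in shGFP cells, 8.16 and 8.33 in clone 1, and 8.05 and 8.35 in clone 2. All 4 shEI24 arrays were above all control arrays, by a difference from shGFP of 0.94 (standard error 0.12, limma adjusted p = 0.00016). Its partner chain COL5A2 read 6.24 and 6.18 in shGFP cells and 6.08 to 6.34 on the shEI24 arrays, a difference of 0.03 (95% interval -0.22 to 0.27, limma adjusted p = 0.84). COL5A3, the third chain of type V, differed by 0.30 (limma adjusted p = 0.077), and it was called against parental cells at 0.38 (limma adjusted p = 0.030). COL27A1, a fibrillar collagen of cartilage, rose by 0.55 (limma adjusted p = 0.0044).

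The chains of the major tissue fibers were not called. COL1A1 read 8.40 and 8.41 in shGFP cells and 8.34 to 8.47 on the shEI24 arrays, a difference of 0.02 (95% interval -0.17 to 0.20, limma adjusted p = 0.87). COL1A2, which joins COL1A1 in type I collagen, differed by 0.16 (95% interval -0.06 to 0.38, limma adjusted p = 0.18), and COL3A1, the type III chain, by 0.22 (95% interval -0.06 to 0.50, limma adjusted p = 0.16). For COL1A1 the interval leaves out a difference as large as that of COL5A1. The remaining fibrillar genes COL2A1, COL11A1, COL11A2 and COL24A1 lay between 0.14 and 0.31. The clusters of COL11A2 that were set aside read 6.82 and 7.04 in shGFP cells and 6.67 to 7.16 on the shEI24 arrays. Of 6 fibroblast markers (DCN, LUM, PDGFRA, PDGFRB, THY1 and FAP), 1 was called, PDGFRA at 0.28, and the mean level of the 6 was 5.38 to 5.59 on the shEI24 arrays and 5.24 to 5.34 on the control arrays. In bulk RNA, more cells with a transcript and more transcript in each cell cannot be told apart. CD68, CD14 and PTPRC, the 3 leukocyte markers, rose by 3.95, 0.89 and 0.21, with a mean level of 7.88 to 8.06 on the shEI24 arrays and 6.23 to 6.48 on the control arrays, while PTPRC, which defines leukocytes, averaged 4.21 in shGFP cells. Of the 3 endothelial markers PECAM1, VWF and CDH5, 1 was called, PECAM1 at 0.52, and their mean level was 6.16 to 6.42 against 5.87 to 6.08. Beside these marker counts, 26.8% of all genes rose and 29.0% fell. The part of these markers in the collagen differences was not tested.

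The 5 type VI genes, which encode the chains of beaded filaments, held 3 that rose, beside 26.8% of all genes. The class median was 0.38. COL6A3, the large chain of the type VI molecule, read 6.10 and 6.49 in parental cells, 6.29 and 6.27 in shGFP cells, 7.80 and 7.70 in clone 1, and 6.66 and 6.61 in clone 2. It lay above all control arrays in both clones but far above them only in clone 1. COL6A1, which pairs with COL6A2 and COL6A3, read 8.24 and 8.31, 8.19 and 8.26, 8.33 and 8.61, and 8.87 and 8.92 in the same order, with clone 2 highest. COL6A2 read 8.21 and 8.48, 8.42 and 8.48, 8.58 and 8.79, and 8.91 and 9.03, again with clone 2 highest. The mean differences of the clones from shGFP were 0.91 for COL6A3 (limma adjusted p = 9.1e-05), 0.46 for COL6A1 (limma adjusted p = 0.0026) and 0.38 for COL6A2 (limma adjusted p = 0.013). With each line taken as 1 replicate and both controls together, COL6A3 differed by 0.91 and was not called (limma adjusted p = 0.13). COL6A2 missed the threshold without shGFP replicate 1 (0.34, limma adjusted p = 0.098) or shGFP replicate 2 (0.41, limma adjusted p = 0.052). COL6A5 and COL6A6, alternatives to the COL6A3 chain in type VI, were not called at 0.14 and 0.17. COL7A1, the only chain of anchoring fibrils, which tie epithelium to the tissue beneath, rose by 0.39 (limma adjusted p = 0.024). It was 0.32 without clone 1 replicate 2 or without clone 2 replicate 2, 0.37 without shGFP replicate 1 and 0.40 without shGFP replicate 2, and was not called in any of these. The multiplexins COL15A1 and COL18A1 of basement membrane zones (0.25 and 0.05), and COL26A1 and COL28A1 (0.13 and 0.05), were not called against shGFP.

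The next comparison asked whether the clones differed from each other. Against shGFP 10 collagen genes rose in clone 1, beside 23.0% of all genes, and 13 rose in clone 2, beside 25.2%. Both comparisons used the same shGFP arrays. Between the clones 3 of the 43 collagen genes (6.98%) differed, beside 15.2% of all genes. COL8A1 was 4.01-fold higher in clone 1 than in clone 2 (log2 difference 2.00, standard error 0.14, limma adjusted p = 8.1e-05), having risen by 3.35 in clone 1 and by 1.34 in clone 2. COL6A3 was 2.17-fold higher in clone 1 (log2 difference 1.11, standard error 0.13, limma adjusted p = 0.0009), at 1.47 above shGFP in clone 1 and 0.36 in clone 2. COL6A1 went the other way, with a log2 difference of clone 1 from clone 2 of -0.42 (standard error 0.11, limma adjusted p = 0.03). COL6A1 was 0.67 above shGFP in clone 2 and 0.24 in clone 1, where it was not called (limma adjusted p = 0.093). COL6A2 lay the same way as COL6A1, by -0.29 (95% interval -0.56 to -0.01), and was not called (limma adjusted p = 0.17). Among the chains of type VI, the clone with the higher COL6A3 signal had the lower COL6A1 signal. The difference in COL6A1 missed the threshold under 6 of 17 alternatives, namely the t-test and the omission of clone 1 replicate 1 (-0.28), clone 2 replicate 1 (-0.45), clone 2 replicate 2 (-0.40) or either shGFP array (-0.42).

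**Figure D4:**
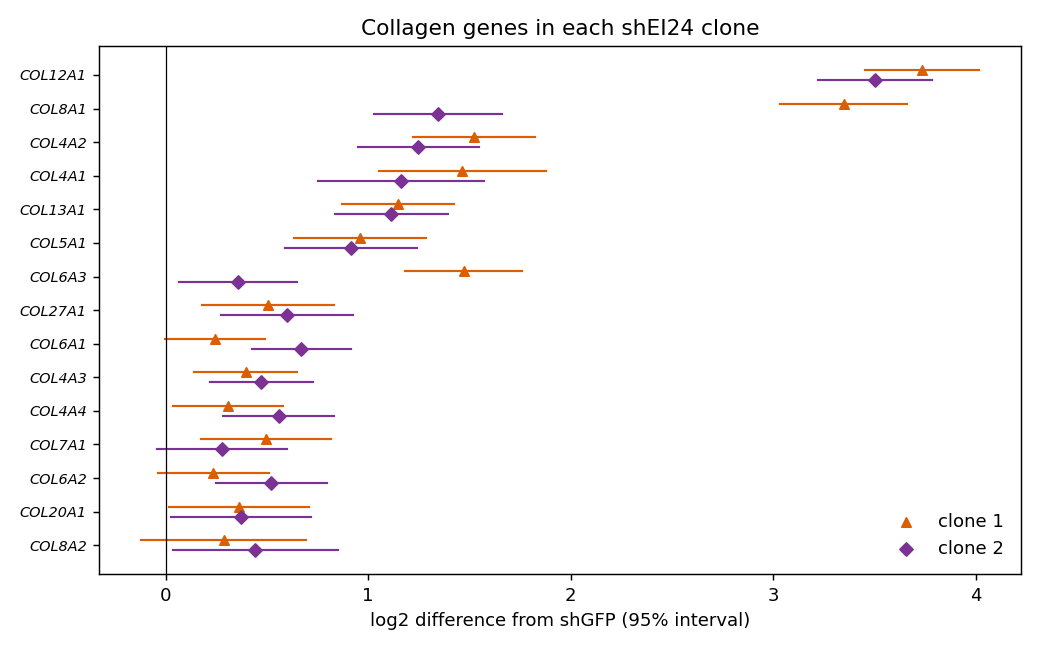
Log2 difference from shGFP in clone 1 and in clone 2, with 95% intervals, for the 14 collagen genes called higher and for COL8A2, in order of their mean difference. The clones lie apart for COL8A1 (3.35 and 1.34), COL6A3 (1.47 and 0.36) and COL6A1 (0.24 and 0.67), and close together for COL12A1 (3.74 and 3.50).

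For the genes with the larger rises other than COL8A1 and COL6A3, no difference between clones passed the test. COL12A1 differed between them by 0.23 (95% interval -0.05 to 0.51, limma adjusted p = 0.28), COL4A1 by 0.30 (limma adjusted p = 0.35) and COL4A2 by 0.28 (limma adjusted p = 0.23). Neither COL13A1 nor COL5A1 was called. These intervals are wide beside the smaller collagen differences.

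A further comparison set the clones against parental cells, which carry no hairpin. It shares the shEI24 arrays with the comparison against shGFP. Here 15 collagen genes (34.9%) were higher, beside 25.1% of all genes. None was lower with limma at an adjusted p, beside 30.8% of all genes. None was lower with limma at an unadjusted p or with the t-test, and no share of all genes is given for these. COL12A1 differed by 3.47, COL8A1 by 2.51, COL4A2 by 1.28, COL4A1 by 1.23, COL13A1 by 1.02, COL6A3 by 0.90 and COL5A1 by 0.85. Besides COL5A3, the genes called against parental cells and not against shGFP were COL26A1 at 0.33 (limma adjusted p = 0.019) and COL1A2 at 0.26 (limma adjusted p = 0.047). For 15 of the 43 collagen genes (34.9%) every shEI24 array was above every array of both controls, beside 23.8% of all genes.

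Between the controls themselves, limma called none of the collagen genes different, beside 10.7% of all genes. The differences of shGFP from parental cells ran from -0.20 to 0.21, and none had an unadjusted p under 0.05. By the t-test 1 had, and 0 after adjustment, with no share of all genes given for these counts.

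The machinery that acts on collagen chains was described from lists of genes with known roles. Of 16 measured genes for folding and hydroxylation of the chains, 9 rose, 4 fell and 3 were not called in the clones against shGFP. In that comparison 26.8% of all genes rose and 29.0% fell. P3H2, a prolyl hydroxylase of basement membrane collagen, rose by 3.53 (limma adjusted p = 4e-08), from a mean of 6.28 in shGFP cells to 10.42 in clone 1 and 9.20 in clone 2. Its relative P3H1 rose by 2.06. FKBP10, a prolyl isomerase that assists folding of fibrillar chains, fell by 3.56 (limma adjusted p = 3.2e-09), from 11.27 to 8.06 in clone 1 and 7.36 in clone 2. Of 5 secretion genes 3 rose and 2 fell. SEC24D, a coat protein of the vesicles that carry procollagen, rose by 3.23, though it was also 0.76 lower in shGFP than in parental cells, against which its difference was 2.47. KLHL12, a ubiquitin ligase adaptor that enlarges these vesicles, fell by 1.38, and MIA2, of the sites where they form, fell by 0.89 against shGFP, while its difference from parental cells was -0.28 and was not called (limma adjusted p = 0.13).

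Outside the cell, 7 of 13 genes for propeptide removal and cross-linking rose and 2 fell. Beside each list here, 26.8% of all genes rose and 29.0% fell. LOX, the oxidase that starts cross-links between chains, averaged 5.95 in parental cells, 5.91 in shGFP cells, 10.94 in clone 1 and 11.07 in clone 2, a difference from shGFP of 5.09 (limma adjusted p = 1.5e-09). LOXL2, its relative that acts on type IV collagen, rose by 3.88, and ADAMTS3, a propeptide-removing protease, by 1.10. Of 9 collagen receptors 4 rose and 1 fell. DDR1, a receptor tyrosine kinase for collagen, fell by 2.38, while ITGA2, an integrin chain that binds collagen, and MRC2, which takes collagen up into the cell, each rose by 1.61. All 6 collagen-cleaving proteases rose, with a median of 1.65. MMP1, which cuts fibrillar collagen, averaged 5.58 in shGFP cells and 13.64 in each clone, a difference of 8.06, or 7.11 against parental cells. MMP14, a protease on the cell surface, rose by 4.37, and MMP9, which cuts type IV and unwound collagen, by 1.90, with a mean of 9.96 in clone 1 and 7.74 in clone 2. The log2 differences of LOX, LOXL2, MMP1 and MMP14 stood above those of all 43 collagen genes, an order that was not tested.

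**Figure D5:**
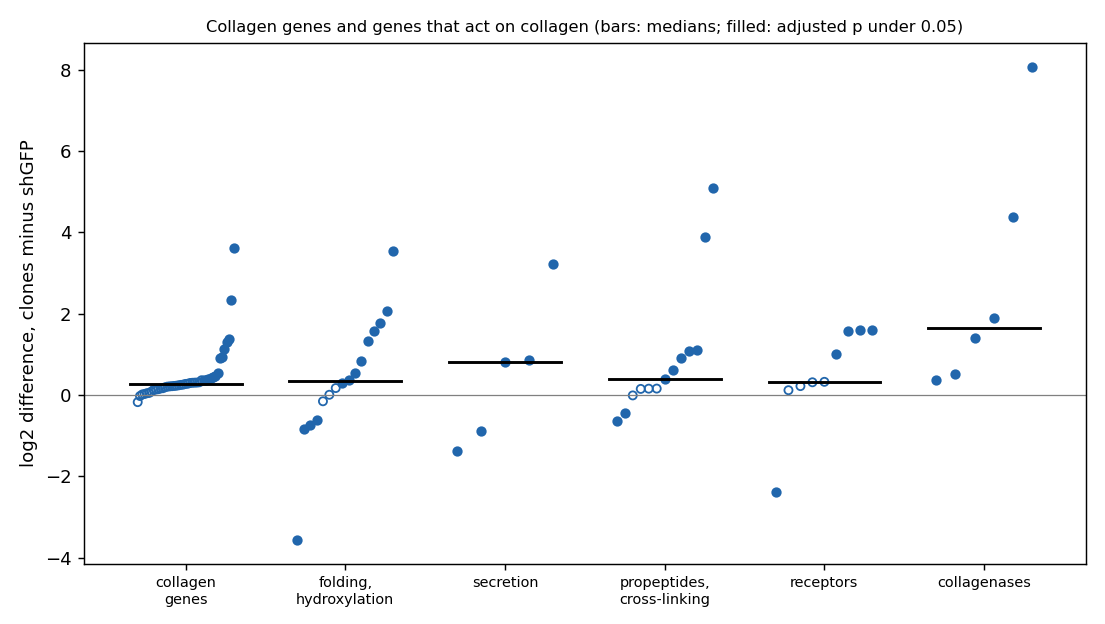
Log2 difference of the clones from shGFP for the 43 collagen genes and for genes that act on collagen, by list, with a bar at each list's median and filled points for an adjusted p under 0.05. The collagen genes cluster just above 0, while the 6 collagenases all lie above 0 (median 1.65) and the folding and receptor genes spread to both sides.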

How the data were processed

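RNA was hybridized to 8 Affymetrix whole-transcript arrays, 2 for each of 4 lines. The values deposited by the authors are log2 intensities, and their processing notes name GCOS and RMA, with versions not given in the sources used here. By RMA, background is removed, arrays are quantile-normalized and probes are summarized, and array medians were 7.28 to 7.39. Low values compress differences, and the number of arrays limits precision. The table holds 33297 transcript clusters, of which 21214 are named in GEO's platform annotation (19460 with 1 symbol, 1754 with several) and 12083 are not. For each gene the single-symbol cluster with the highest mean was kept, which set aside 1043 and left 18417 genes. The 43 collagen genes had 45 such clusters, and 1 cluster shared with another gene was left out.

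Lines were taken from the sample titles. Differences were fitted with limma 3.58.1 in R 4.3.3 (lmFit, eBayes, 4 residual degrees of freedom) with Benjamini-Hochberg adjustment over all genes. The procedure was tested on simulated data, in which few genes changed and the noise was independent, unlike on these arrays. The study's methods name no test across genes for the arrays. Collagen genes, classes and gene lists were chosen with earlier results of these data known. Arrays are given one by one for genes changed at least 2-fold between clones and shGFP or between lines, and for their chain partners, and of each list the 3 largest changes are named. COL4A5, COL5A1, COL1A1 and other single genes of interest were added after their values were seen. The alternatives were another control, another normalization, variance model or cluster, leaving out arrays or dim genes, each line as 1 replicate (against both controls together), a replicate block, a 2-fold threshold and the methods' t-test, with cyclic loess chosen after seeing the data.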

Additional observations from a re-analysis of the deposited data

Results flagged for a closer look

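The clones of shEI24 differed from each other in 3 collagen genes by limma's test of clone 1 minus clone 2. The log2 differences were 2.00 for COL8A1 and 1.11 for COL6A3, both higher in clone 1, and -0.42 for COL6A1, higher in clone 2. With 2 arrays for each clone and 1 clone for each line, a difference between clones and a difference between cultures cannot be told apart.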

How the results depend on the processing

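Of the 14 collagen genes higher in the clones than in shGFP, 6 (COL12A1, COL13A1, COL27A1, COL4A1, COL4A2 and COL5A1) were called under all 20 alternatives other than the 2-fold threshold, and COL12A1 ranged from 3.47 to 3.70. The count was 5 at a 2-fold threshold, 6 with each line as 1 replicate and both controls together (14.9% of all genes), 7 with the methods' unpaired t-test and 24 with shGFP and parental cells pooled as the control (30.2%), and leaving out each array in turn gave 9 to 24. With the replicate number as a term (replicate block) it was 30, beside 34.2% of all genes. The genes gained included COL2A1, COL3A1, COL5A3 and COL8A2. Lines with the same replicate number correlated in their deviations from the line means, with coefficients of 0.25 to 0.59. No label ties a replicate number to a batch, so the main test did not pair the lines by it. Genes lower in the clones numbered 1, not 0, under cyclic loess and under a second quantile normalization, which was COL4A5 in both. Genes that differed between the clones numbered 1, not 3, without the dimmest of 3 equal groups of genes, which held COL8A1 and COL6A3, and 0 with the t-test. No difference changed sign under any alternative run for the 14 genes, COL4A5 or COL8A2. COL8A1 and COL6A3 missed the threshold with each line as 1 replicate against both controls together and with the t-test (adjusted p = 0.11 and 0.21). With 2 arrays for each line, differences of about 0.30 lie near the limit of what was called. Leaving out either parental array or both gave the same fit for the clones against shGFP, so the alternatives are not all distinct.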
